A study of Mus musculus with 4 samples.

Results

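Type IV collagen genes lie in head-to-head pairs, and the 6 genes Col4a1 to Col4a6 of the mouse, in 3 such pairs, are described here among 21951 protein-coding genes of the annotation. The genes were chosen by name and on measured values of these libraries, because the window around Col4a1 and Col4a2 was known to hold many more peaks in yolk sac than in liver. Every difference between liver and yolk sac below is therefore a description with no test. With 2 libraries against 2, an exact permutation test could in any case not give a p-value below 0.333.

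The libraries are PRO-seq, a nuclear run-on method that marks engaged RNA polymerases, from E14.5 mouse embryos. There are 2 liver and 2 yolk sac libraries, each made from tissue pooled from 6 embryos. All 4 share the same cross: C57BL/6J mothers and fathers of mixed C57BL/6J and CAST/EiJ background, carrying only CAST/EiJ alleles at Dlk1/Gtl2. The sample labels spell the strain background as a mix of C57BL/6h and CAST/EiJ. The deposited values are dREG peaks, intervals that a classifier called as sites of transcription initiation, whether at genes' promoters or far from them. A peak carries no strand, so a peak between 2 divergent genes cannot be given to either of them. List lengths were 24863 and 24333 peaks for liver and 50525 and 43055 peaks for yolk sac. Read numbers are unknown, so depth and the number of active sites cannot be told apart as sources of a longer list.

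Type IV collagen is the network-forming collagen of basement membranes, the thin sheets beneath epithelia and endothelia. Each molecule is a trimer of alpha chains: the chains of Col4a1 and Col4a2 form the trimer found in nearly all basement membranes, while those of Col4a3, Col4a4 and Col4a5 form a trimer known from the filtration barrier of the kidney, and those of Col4a5 and Col4a6 occur together in a subset of epithelial and smooth muscle basement membranes. In every pair the genes are transcribed away from a common promoter region.

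The distance between the start sites differed among the pairs. Col4a1 (chr8:11198423-11312826, minus strand) and Col4a2 (chr8:11312805-11449287, plus strand) overlapped at their 5′ ends by 22 bp in GENCODE M21 on GRCm38. Col4a4 (chr1:82448423-82586849, minus strand) and Col4a3 (chr1:82586921-82722059, plus strand) had first starts 72 bp apart. Col4a6 (chrX:141165403-141474076, minus strand) and Col4a5 (chrX:141475385-141689234, plus strand) had first starts 1309 bp apart. The stretches below show what lies between or upstream of the starts of each pair. They are shown because these are the places where the 3 pairs differed in peaks. They come from RefSeq promoter windows (GRCm38.p6), which were found for all members but Col4a3, and are written 5′ to 3′ on the strand of the gene named. The Col4a4 stretch is therefore printed from the side of Col4a3 and ends beside the start of Col4a4. Capitals mark a GC box (GGGCGG) or a CCAAT box, on either strand.
Col4a2, overlap with Col4a1, chr8:11312805-11312826, plus strand: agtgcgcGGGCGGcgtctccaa
Col4a4, from its start to that of Col4a3, chr1:82586850-82586920, minus strand: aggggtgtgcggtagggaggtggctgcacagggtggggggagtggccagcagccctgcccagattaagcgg
Col4a5, upstream, chrX:141475169-141475384, plus strand: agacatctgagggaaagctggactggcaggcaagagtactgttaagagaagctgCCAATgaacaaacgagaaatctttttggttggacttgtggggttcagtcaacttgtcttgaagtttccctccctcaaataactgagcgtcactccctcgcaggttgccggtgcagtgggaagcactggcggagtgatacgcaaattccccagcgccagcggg
Col4a6, upstream, chrX:141474077-141474326, minus strand: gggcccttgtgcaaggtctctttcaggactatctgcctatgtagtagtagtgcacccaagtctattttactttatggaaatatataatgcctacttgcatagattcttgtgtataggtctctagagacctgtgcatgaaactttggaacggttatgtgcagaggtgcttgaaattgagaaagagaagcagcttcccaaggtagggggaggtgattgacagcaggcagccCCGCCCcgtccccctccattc

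The promoter windows also differed in CpG content. Over windows of 300 bases around the start, Col4a1 had 37 CpG dinucleotides and Col4a2 had 33, and these windows overlap each other. Col4a4 had 14, Col4a5 had 11 and Col4a6 had 3, against a median of 7 over 32817 RefSeq promoter windows. The G and C content was 74.0% at Col4a1 and 73.7% at Col4a2, 63.3% at Col4a4, 52.7% at Col4a5 and 48.3% at Col4a6, and the median over all windows was 52.7%. A GC box (GGGCGG, both strands) was found in the windows of Col4a1, Col4a2, Col4a5 and Col4a6 and in 35.6% of all windows, and CCAAT (both strands) in those of Col4a1, Col4a2 and Col4a5 and in 37.4%. The GC box printed for Col4a2 lies in the bases it shares with Col4a1, so it counts in both windows. None of the 5 windows held TATAAA, which 13.6% of all windows held. None of them held the AP-1 letters TGANTCA (7.81% of all windows), the GATA letters AGATAA (11.2%) or the ETS letters CCGGAAG (8.86%). The TEAD letters GGAATG (14.7%) occurred in the Col4a6 window only. A match says only that these letters are present.

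Each pair had its own pattern of promoter peaks, defined as a peak within 500 bp of an annotated start. Col4a1 and Col4a2 had a promoter peak in all 4 lists, Col4a5 and Col4a6 in both yolk sac lists and in neither liver list, and Col4a3 and Col4a4 in none. Thus 2 of the 6 members were called in all 4 lists, where 53.8% of protein-coding genes were, and 2 of 6 in yolk sac only, where 5.25% were. A further 2 of 6 were called in no list, the state of 34.2% of protein-coding genes, and 0 of 6 in liver only (1.01% of genes). No direction is read from these shares, because the comparison of tissues was part of how the genes were chosen. The number of members called in each list was the same with windows of 250 and 1000 bp and with the starts of protein-coding transcripts only.

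The pairs were next placed among other divergent genes. Head-to-head protein-coding pairs with first starts within 1000 bp of each other numbered 1212, and 91.0% of them had promoter peaks at both genes in all 4 lists, as Col4a1 and Col4a2 did. Both genes lacked a promoter peak in every list in 2.56% of the pairs, a class of 31 pairs that includes Col4a3 and Col4a4. Promoter peaks in both yolk sac lists alone, at both genes, were found in 1.16% of the pairs. The first starts of Col4a5 and Col4a6 are farther apart than this limit, so that pair is not among the 1212.

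At Col4a1 and Col4a2 the shared start region was covered by a single peak in each list, and that peak was wider in yolk sac. It spanned 11311451 to 11314202 in liver replicate 1 and 11311451 to 11313252 in liver replicate 2. In yolk sac it spanned 11310051 to 11314802 in replicate 1 and 11310101 to 11314552 in replicate 2. Both yolk sac peaks reached farther into Col4a1 and farther into Col4a2 than either liver peak. The width was 2277 ± 672 bp in liver and 4602 ± 212 bp in yolk sac (SD, n = 2), and the values of the tissues did not overlap. The ratio of yolk sac to liver width was 2.02, against a median of 1.05 over 10339 coding promoter regions with a single peak in each list, and 92.1% of those regions had a ratio no higher. Among these regions the peak was at the 91.6 and 71.6 percentiles of width in the liver lists and at the 99.7 and 99.6 percentiles in the yolk sac lists. Its score was not at the top of any list: the within-list score percentile was 60.0 and 75.2 in liver and 86.0 and 63.3 in yolk sac, and the tissues overlapped.

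At Col4a5 and Col4a6 the yolk sac lists held separate peaks at the starts of the 2 genes. The Col4a6 peak spanned 141473251 to 141474202 in yolk sac replicate 1 and 141473201 to 141474102 in replicate 2, with score percentiles of 39.9 and 47.7. The Col4a5 peak was wider, with 1802 bp from 141475151 in replicate 1 and 1852 bp from 141475201 in replicate 2, and score percentiles of 71.0 and 52.3. Each peak lay mostly on the transcribed side of its start: 825 and 875 bp of the Col4a6 peaks were downstream and 126 and 26 bp upstream, and 1567 and 1667 bp of the Col4a5 peaks were downstream and 234 and 184 bp upstream. The Col4a6 peaks were lost from both lists when only the higher-scoring 50% of each list was kept, while the Col4a5 peaks were kept in both. When every list was limited to its 24333 highest-scoring peaks, the length of the shortest one, Col4a6 kept its peak in yolk sac replicate 2 only.

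**Figure D1:**
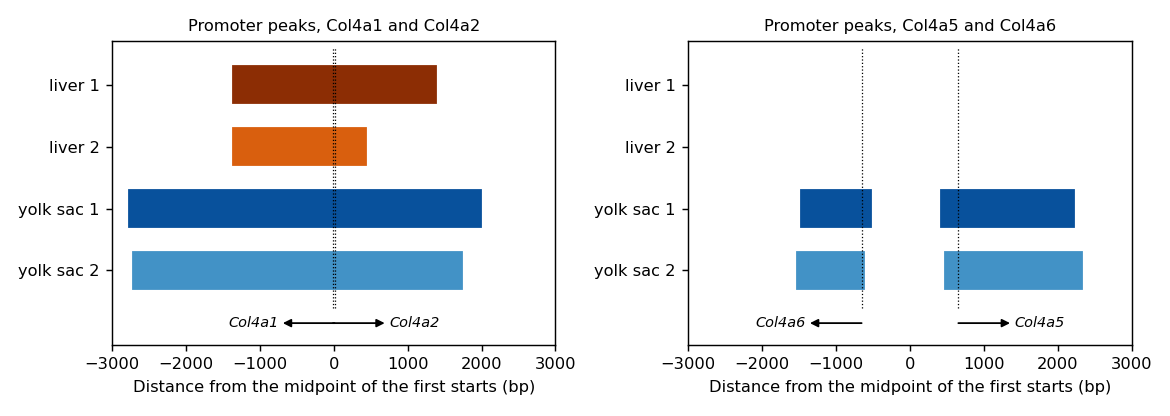
Extent of the promoter peaks at the Col4a1-Col4a2 pair (left) and the Col4a5-Col4a6 pair (right) in each of the 4 libraries. The x axis is the distance in bp from the midpoint of the first starts, dotted lines mark the first starts, arrows give the direction of transcription and each bar is 1 peak. A single peak covers both starts of Col4a1 and Col4a2 in every library and is widest in yolk sac (4752 and 4452 bp), and Col4a5 and Col4a6 have separate peaks in the yolk sac libraries only.

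Inside Col4a1 and Col4a2, the yolk sac lists held many more peaks than the liver lists. In liver, 2 and 1 peaks overlapped Col4a1, and in yolk sac 15 and 11 did. Col4a2 was overlapped by 2 peaks in each liver list, by 20 in yolk sac replicate 1 and by 17 in replicate 2. For both genes the lowest yolk sac count was above the highest liver count. The means were 1.5 ± 0.707 and 13 ± 2.83 peaks at Col4a1, and 2 ± 0 and 18.5 ± 2.12 at Col4a2 (SD, n = 2, liver then yolk sac). Per 100 kb of gene, Col4a2 had 1.47 peaks in each liver list and 14.7 and 12.5 in the yolk sac lists. The median over protein-coding genes of any length with a gene-body peak was 4.20 and 4.22 in liver and 7.0 and 6.25 in yolk sac. Col4a2 was below that median in liver and above it in yolk sac. In a short gene 1 peak alone gives a high value per 100 kb. The position below the median in liver is therefore not read as few peaks for a gene of this length.

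Peaks in the other members were few. Col4a3 was overlapped by 3 peaks in each liver list, by 2 in yolk sac replicate 1 and by 1 in replicate 2. Col4a4 and Col4a5 each had 0 peaks in both liver lists and 1 in each yolk sac list. Col4a6 had 0 in both liver lists, 2 in yolk sac replicate 1 and 1 in replicate 2. By this count both yolk sac lists were above both liver lists in 5 of 6 members, as in 32.0% of the 15384 protein-coding genes with a gene-body peak, and both liver lists were above in 1 of 6, Col4a3, as in 6.23%. The count includes promoter peaks, so it is not separate from the promoter result. In each yolk sac list the 1 peak of Col4a5, and 1 peak of Col4a6, is the promoter peak. The shared promoter peak of Col4a1 and Col4a2 counts in both genes.

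**Figure D2:**
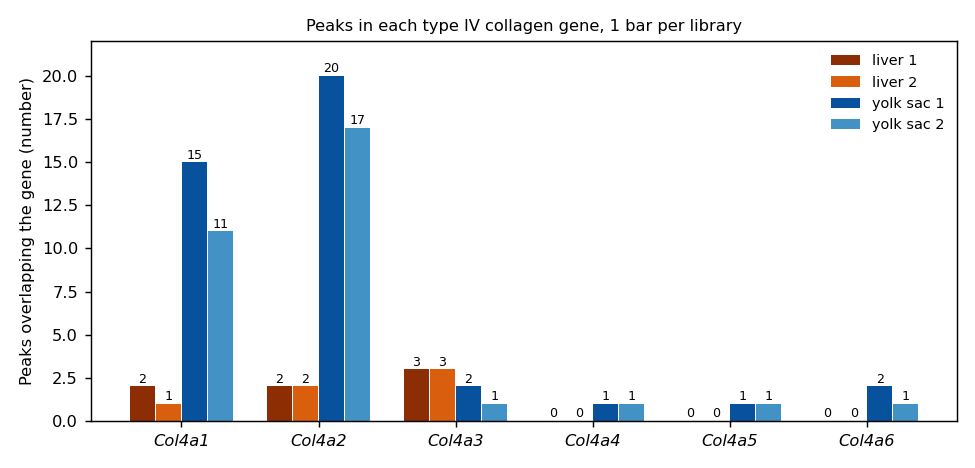
Number of peaks overlapping each type IV collagen gene, with 1 bar per library and the count above each bar (the y axis starts at 0). Col4a1 and Col4a2 have 11 to 20 peaks in the yolk sac libraries and 1 or 2 in the liver libraries, and the other 4 genes have at most 3 in any library.

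This difference was smaller once the lists were made equally long. At 24333 peaks each, Col4a2 kept 2 in each liver library, 5 in yolk sac replicate 1 and 7 in replicate 2. Col4a1 then had 2 and 1 in liver against 2 and 3 in yolk sac, where the tissues overlapped. Both yolk sac lists were then above both liver lists at 2 of 6 members, Col4a2 and Col4a5, against 11.8% of the 14615 genes with a peak in these lists. Both liver lists were above both yolk sac lists at 1 of 6, Col4a3, against 16.3%. In the higher-scoring 50% of each list, Col4a2 had 1 peak per liver library against 8 and 6 in yolk sac, and Col4a1 had 1 against 2 and 3.

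Longer genes have more room for peaks, so the members were also ranked per 100 kb among the 2492 protein-coding genes of 100 kb or more. By the difference between the tissue means, Col4a2 was at rank 1 with 12.1 more peaks per 100 kb in yolk sac, and Col4a1 was at rank 8 with 10.1 more. With equal list lengths, Col4a2 was at rank 33 and Col4a1 at rank 369. Col4a4, Col4a5 and Col4a6 were at ranks 1143, 1309 and 1295 with all peaks, and Col4a3, with a difference of -1.11 peaks per 100 kb, was at rank 2416.

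**Figure D3:**
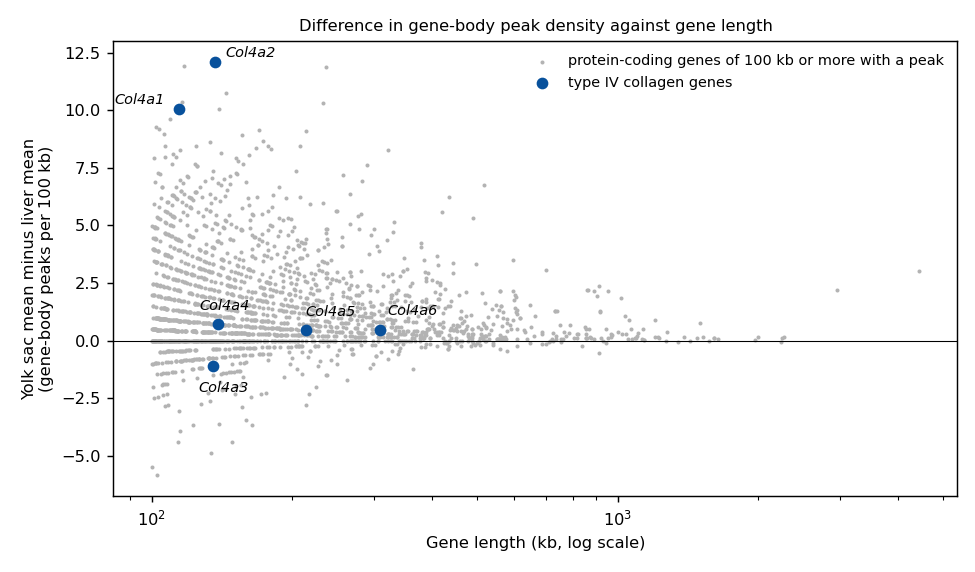
Difference between the yolk sac and liver means of gene-body peaks per 100 kb (y axis) against gene length in kb (x axis, log scale) for protein-coding genes of 100 kb or more with at least 1 peak. Each grey point is a gene and the 6 blue points are the type IV collagen genes. Col4a2 (12.1) and Col4a1 (10.1) are near the upper edge, and Col4a3 (-1.11) is below 0.

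Some genes of other families had nearly the same 4 counts. By Euclidean distance between gene-body peak counts over the 4 libraries, the genes nearest to Col4a1 were Lrmda (distance 1), Vps53, Tcf4 and Arhgap24 (1.41 each) and St6gal1 (1.73). Those nearest to Col4a2 were Msi2 (1), Rgs3 and Dnm3 (1.41 each), Phactr2 (1.73) and Mylk (2). Most of these genes are longer: Lrmda spans 1036 kb and Msi2 379 kb, against 114 kb for Col4a1 and 136 kb for Col4a2. Vps53 (133 kb), St6gal1 (136 kb) and Rgs3 (144 kb) are of similar length.

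The positions of these peaks were then examined over the pair and 50 kb on either side (chr8:11148423-11499287). Each liver list had 8 peaks in this span, yolk sac replicate 1 had 45 and replicate 2 had 36. As a share of the list, this was 3.22 and 3.29 per 10000 peaks in liver against 8.91 and 8.36 per 10000 in yolk sac. With equal list lengths the counts were 8 in each liver list against 14 and 17 in yolk sac, which again did not overlap. Inside the pair, peaks covered 3.21 and 2.50 kb in liver and 26.8 and 20.4 kb in yolk sac, of a span of 250.865 kb.

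When overlapping peaks of the 4 lists were merged, the span held 49 regions. Of these, 30 (61.2%) were called in both yolk sac lists and in neither liver list, a class here termed yolk-sac-only, against 33.0% of all 61095 merged regions. Another 2 regions (4.08%) were liver-only, called in both liver lists and neither yolk sac list, against 6.62% of all regions. Of the 49, 36 lay in gene bodies and 9 in the flanks with no annotated start within 500 bp. The shares of all regions include those at promoters, so the comparison is not between like kinds of region. All 4 lists shared 5 regions, and 12 were called in 1 list only. The shared regions were the promoter of the pair and 4 regions in the flank beyond Col4a2. Of these 4, 3 lay within 500 bp of the starts of Gm20100, of Rab20 and E230013L22Rik, and of Naxd. Rab20 encodes a small GTPase and Naxd an enzyme that repairs hydrated NADH. The fourth, at chr8:11472851-11473852, was not near an annotated start.

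The yolk-sac-only regions inside the genes were gathered in a few long introns. Apart from the promoter, 36 regions lay in the 2 gene bodies, 35 of them with their midpoint in an intron. Both yolk sac lists alone called 25, of which 9 were in Col4a1 and 16 in Col4a2, and 22 of the 25 were in Col4a1 introns 1 and 2 or Col4a2 introns 3 and 4. In Col4a1, intron 1 (44.9 kb) and intron 2 (20.5 kb) each held 4. In Col4a2, intron 3 (40.6 kb) held 6 and intron 4 (44.3 kb) held 8. These 4 introns are also the longer part of the genes: intron 1 makes up 39.2% and intron 2 makes up 17.9% of Col4a1, and introns 3 and 4 make up 29.7% and 32.5% of Col4a2. Col4a1 intron 21 and Col4a2 introns 6 and 11, each under 2 kb long, held 1 each.

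Within the lists these intronic regions spread widely in score. The 25 regions ranged from the 5.60 to the 86.5 percentile, with medians of 43.2 in yolk sac replicate 1 and 38.1 in replicate 2. Their merged widths ran from 302 to 1902 bp, with a median of 802 bp. A further 9 intronic regions were called in 1 yolk sac list, 8 of them in replicate 1, whose list is the longer. The 8 had a median percentile of 23.8, and the 1 in replicate 2 was at 32.8. Neighbouring peaks inside the pair were separated by a median gap of 3148 bp in yolk sac replicate 1 and 4198 bp in replicate 2.

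The highest-ranking yolk-sac-only regions of the span, by the lower of their 2 percentiles, lay in Col4a2 and in the flank. One in Col4a2 intron 4, at chr8:11375501-11376152, was at the 86.5 and 73.9 percentiles. Another in Col4a2 intron 3, at chr8:11351101-11352002, was at 72.4 and 78.0. The leading region lay inside Rab20, at chr8:11463551-11465002, with percentiles of 75.3 and 98.8. Of the liver-only regions, 1 was in Col4a2 intron 45 near the 3′ end of the gene, at chr8:11443801-11444502, with percentiles of 14.1 and 30.4. The other was inside Rab20, at chr8:11471051-11471752, at 36.8 and 47.9. The 1 remaining gene-body peak of liver, 202 bp wide and at the 9.26 percentile, overlapped the last exon of Col4a1 in replicate 1.

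**Figure D4:**
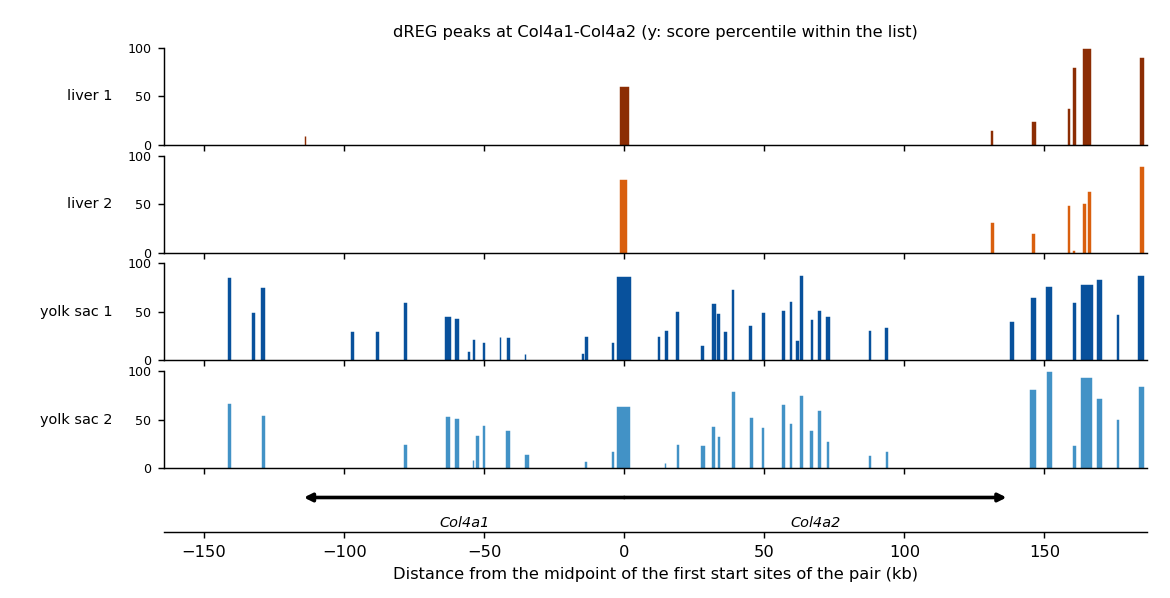
Peaks over Col4a1, Col4a2 and 50 kb on either side, with 1 track per library. The x axis is the distance in kb from the midpoint of the first starts, bar width is the peak width with a thin outline, bar height is the percentile of the peak's score within its own list (0 to 100), and arrows show the genes. The promoter peak at 0 is in every track, and the tracks of yolk sac have 33 and 26 further peaks in the genes against 2 and 1 in those of liver.

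The limits of the span fell in peak-poor sequence on the Col4a1 side. The last peak inside was the Naxd promoter peak on the Col4a2 side, which ended at 11498102 in both liver lists and in yolk sac replicate 1, and at 11498052 in replicate 2. The nearest peak outside on that side was 8.26 kb beyond the limit in yolk sac replicate 1 and 50.4 to 50.7 kb beyond it in the other lists. On the Col4a1 side it was 92.3 and 92.5 kb away in liver and 34.9 and 34.8 kb away in yolk sac.

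Col4a3 and Col4a4 had no promoter peak, but Col4a3 held intronic peaks with high scores, some of them in liver only. A region in intron 1, at chr1:82624801-82625952, was called in both liver lists, at the 92.2 and 82.8 percentiles, and in neither yolk sac list. A second liver-only region in intron 1, at chr1:82637101-82638102, was at the 80.4 and 75.8 percentiles. The third region, in intron 3 at chr1:82647401-82648752, was called in all 4 lists, at 85.9 and 95.2 in liver and at 98.2 and 89.4 in yolk sac. These 3 regions lay 38.5, 50.7 and 61.2 kb from the midpoint between the starts of the pair. All 3 were at the 75.8 percentile or above in each list that called them.

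The rest of the pair was nearly empty. In Col4a4, the 1 yolk-sac-only region was in intron 44, at chr1:82461051-82461352, at the 12.0 and 20.9 percentiles. Yolk sac replicate 1 had a peak of 102 bp at exon 51 of Col4a3, at the 0.936 percentile, close to the lowest score in the list. The pair and 50 kb on either side (chr1:82398423-82772059) held 4 peaks in each liver list, 5 in yolk sac replicate 1 and 3 in replicate 2, so the tissues overlapped. The remaining shared region, at chr1:82724251-82726902, was at the starts of Mff, whose product acts in mitochondrial fission, and C430014B12Rik. With equal list lengths, and also in the higher-scoring 50%, there were 4 per liver library and 2 per yolk sac library, since the lower-scoring yolk sac peaks dropped out.

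Col4a5 and Col4a6, on chromosome X, lay in the emptiest surroundings. Neither liver list had a peak in the pair or within 50 kb of it (chrX:141115403-141739234), and none lay within 157.9 kb beyond that span on one side and 488.1 kb on the other. The yolk sac lists held 3 and 2 peaks there: the promoter peaks of the 2 genes and, in replicate 1, a peak of 202 bp in Col4a6 intron 2, at the 6.74 percentile. No peak of the 4 lists lay elsewhere in the 214 kb of Col4a5 or the 309 kb of Col4a6. A gene without a peak may still be transcribed, at a level the classifier did not call at the depth of the list.

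**Figure D5:**
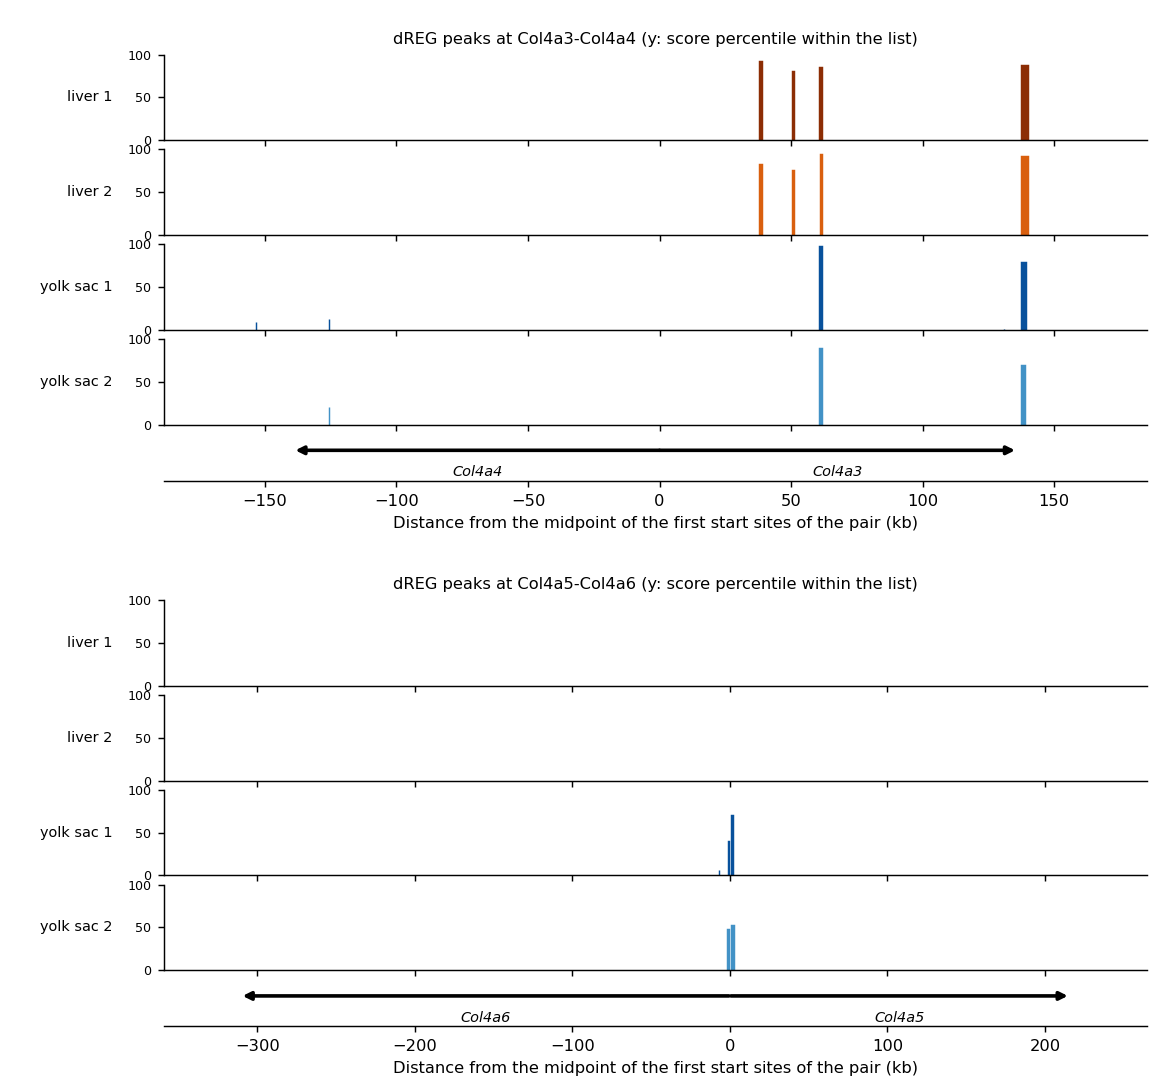
Peaks over Col4a3-Col4a4 (upper 4 tracks) and Col4a5-Col4a6 (lower 4 tracks) with 50 kb on either side, 1 track per library. The x axis is the distance in kb from the midpoint of the first starts, bar width is the peak width with a thin outline, bar height is the score percentile within the list, and arrows show the genes. There are no bars at the starts of Col4a3 and Col4a4, 3 bars in Col4a3 in each liver track, and bars at the starts of Col4a5 and Col4a6 in yolk sac alone.

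A list of 44 genes that act with type IV collagen was examined by role. For the whole list, 36 and 39 genes had a promoter peak in liver, and 41 had one in each yolk sac list. Of the 44, 36 had one in all 4 lists, against 53.8% of all protein-coding genes. In both yolk sac lists alone 2 had one, against 5.25%. Both yolk sac lists had more gene-body peaks than both liver lists at 23 of 44 genes, and the reverse held at 1, against the 32.0% and 6.23% of all genes given above. With equal list lengths these numbers were 8 and 4 of 44, against 11.8% and 16.3%. The median difference between the tissue means was 1 peak, against 0 over the 15384 genes with a gene-body peak.

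Enzymes and chaperones that modify and fold the chains, such as prolyl and lysyl hydroxylases, mostly had promoter peaks everywhere. In all 4 lists 14 of 15 had one, against 53.8% of all protein-coding genes. Serpinh1, which encodes a collagen chaperone, was among them. Both yolk sac lists had more gene-body peaks at 7 of these 15, against 32.0% of all genes. With equal list lengths they did at 0 and liver was above at 1, against 11.8% and 16.3% of all genes. Of the 7 genes of secretion and cross-linking, 6 had promoter peaks in all 4 lists, against 53.8% of all protein-coding genes. In gene-body peaks yolk sac was above at 1 of the 7 and liver at 1, against 32.0% and 6.23% of all genes. With equal list lengths the numbers were 1 and 2, against 11.8% and 16.3%. Klhl12, an adaptor of a ubiquitin ligase that acts in collagen export, had 2 gene-body peaks in each liver list and 1 in each yolk sac list. Next by difference between the means, Ppib, a prolyl isomerase, had 2 and 1 in liver and 1 and 1 in yolk sac. Itgb1, an integrin subunit, had 1 and 2 against 1 and 1. At both of these genes the tissues overlapped.

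Among the 13 partners of the network, such as laminins, nidogens and perlecan, both yolk sac lists were above both liver lists at 10, against 32.0% of all genes. With equal list lengths they were above at 5, against 11.8% of all genes. Lama5, a laminin alpha chain, had a promoter peak in both yolk sac lists and neither liver list, with no gene-body peak in liver and 6 in each yolk sac list. Lama2, another laminin alpha chain, was also yolk-sac-only at the promoter, with 1 gene-body peak in liver replicate 1, 0 in replicate 2 and 1 in each yolk sac list. Hspg2, which encodes perlecan, had 2 and 2 in liver and 9 and 9 in yolk sac. Col15a1, a collagen of the basement membrane zone, had 2 and 2 in liver and 8 and 10 in yolk sac. Of 9 receptors, 5 had more gene-body peaks in both yolk sac lists, against 32.0% of all genes, and none had more in both liver lists. Yolk sac was above at 2 of the 9 and liver at 1 in lists of equal length, against 11.8% and 16.3% of all genes.

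Sets of cell type markers differed in how far they followed the tissue labels. For the gene-body counts below, the shares of all genes were 32.0% with yolk sac above and 6.23% with liver above. With equal list lengths these shares were 11.8% and 16.3%. All 8 erythroid markers had promoter peaks in both liver lists and in neither yolk sac list, against 1.01% of all protein-coding genes. Their gene-body counts were above in both liver lists at 6 and in both yolk sac lists at 0. With equal list lengths the numbers were 7 and 0. Epb42 and Klf1 had 1 gene-body peak in every full list. The 7 visceral endoderm markers all had promoter peaks in both yolk sac lists, against 5 and 2 of them in liver. At the promoter, 2 of the 7 were yolk-sac-only and 2 were called in all 4 lists, against 5.25% and 53.8% of all protein-coding genes. Their gene-body counts were above in both yolk sac lists at 3 and in both liver lists at 0. With equal list lengths the numbers were 2 and 0. Of 7 hepatocyte markers, 5 had promoter peaks in each liver list and 4 in each yolk sac list. By pattern, 3 were called in all 4 lists, 2 were liver-only and 1 was yolk-sac-only, against 53.8%, 1.01% and 5.25% of all protein-coding genes. Their gene-body counts were above in both yolk sac lists at 2 and in both liver lists at 2, but with equal list lengths at 0 and 4. Among markers of cells that lie on basement membranes, the endothelial set was the one with yolk sac above at every gene. Fewer markers of these sets had yolk sac above with equal list lengths. All 7 endothelial markers had more gene-body peaks in both yolk sac lists, against 32.0% of all genes, with sums of 7 and 9 in liver and 27 and 23 in yolk sac, and Emcn had none in liver. In lists of equal length yolk sac was above at 3 of the 7, against 11.8% of all genes, and liver at 0, against 16.3%. Of 8 mesenchymal and mural markers, yolk sac was above at 4, against 32.0% of all genes. With equal list lengths it was above at 1 of the 8, near the 11.8% of all genes. The sums in the full lists were 6 and 9 in liver against 16 and 14 in yolk sac. Rgs5 was at 0 in every list and Hand1 at 0 in liver, while Pdgfra had 0 and 3 in liver and 1 in each yolk sac list. Liver was above at 0 of the 8, also with equal list lengths. The 5 parietal endoderm markers were divided. Yolk sac was above at 3, among them Lama1 and Sparc of the list above, and liver at Thbd and Fst, each with 2 peaks per liver list and 1 per yolk sac list. Yolk sac was above at 1 of the 5 and liver at 2 in lists of equal length. Of 4 macrophage markers, yolk sac was above at 2 and liver at 0, and with equal list lengths the numbers were 0 and 1. The part of cell composition in the results at the type IV collagen genes was not tested, and in pooled tissue more cells of a type cannot be told apart from more initiation per cell.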

How the data were processed

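PRO-seq peak lists of 2 liver and 2 yolk sac libraries were analysed. Per the labels' protocols, the run-on was performed on chromatin from frozen, ground tissue. Each deposited file lists the dREG peaks of 1 library with a score. The deposited score has no unit and a minimum of 0.800, was not scaled between libraries, and was used only as a percentile (mean rank) within its own list. The submitters' processing notes name Bowtie2, bedtools and mm10. The dREG version and filters are not given in the sources used here. The depth of each library is unknown, so no interval from reads can be given. Labels do not say whether the replicates come from separate litters, so their spread may be technical.

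Positions were made 1-based and matched to GENCODE M21 (GRCm38) with Python 3.11.15, numpy 2.4.6 and pandas 2.3.3. A peak counted for a gene or span by an overlap of at least 1 bp, and for a promoter within 500 bp of any start. Overlapping peaks of the 4 lists were joined into merged regions. Introns are numbered on the longest coding transcript. Functions were tested on 200 genes with planted peaks. Promoter sequences are from RefSeq. Motifs were searched in promoters only, and distal regions were not searched.

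Members, lists and naming rules were chosen with earlier results of these data known. Named are all members, genes with starts in a span, the 5 genes most like Col4a1 and Col4a2, the listed genes called in 1 tissue only or with the 3 largest differences in each direction, shared regions, and the 3 leading regions per tissue. Alternatives were score filters, windows, flanks, midpoints, merging, distal peaks, coding starts and leaving out each library.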

Additional observations from a re-analysis of the deposited data

How the results depend on the processing

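Of 59 alternatives to 7 results, 42 stayed within the spread between replicates (for counts of regions, within 1.5 times), 13 moved beyond it and 4 changed sign. With 2 libraries per tissue, leaving 1 out shifts a mean by no more than this spread. For differences between means, those alternatives could not move beyond it. Their place among the 42 says nothing about stability. The difference in peak number (yolk sac mean minus liver mean) at Col4a1-Col4a2 was 32.5, at Col4a3-Col4a4 0 and at Col4a5-Col4a6 2.5. In the higher-scoring 50% of each list these became 12, -2 and 1, and with equal list lengths 7.5, -2 and 1.5. Flanks of 100 kb gave 2 at Col4a3-Col4a4. Leaving out each library gave 28 to 37, -1 to 1 and 2 to 3. The mean number of members with a promoter peak was higher in yolk sac by 2, by 1 in the higher-scoring 50% and by 1.5 with equal list lengths, and stayed 2 without any library. The 30 yolk-sac-only regions at Col4a1-Col4a2 became 9 and 7 under these score filters, which keep fewer peaks, and 30 to 40 without a library. The share of all merged regions under the filters was not computed. By its definition this count can only stay or rise when a library is left out. The median score percentile at Col4a1-Col4a2 differed by -5.23, and by -7.73 in the higher-scoring 50%. It reversed to 21.3 with equal list lengths, which drop low-scoring peaks mainly from yolk sac, and to 12.9 for distal peaks. The median width differed by -62.5 bp, and by -525 bp in the higher-scoring 50%. It reversed to 262.5 bp with equal list lengths and to 75 bp for distal peaks. Leaving out libraries gave -6.03 to -4.43 and -112.5 to -12.5 bp. Percentiles keep the ranks of the full lists. No paired analysis was possible because the labels do not tie replicate numbers across tissues and no result comes from a test.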
